A study of Mus musculus with 59 samples.

Results

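Cholesterol synthesis, its control, and the handling of cholesterol and lipids in the brain were followed through 32 genes in 59 mouse brain RNA-seq libraries. The genes were chosen by name for what they encode and were matched to 32 of the 54232 mouse genes of the count files by Ensembl identifier. All 32 passed the filter on low counts in every region. By role, 8 act in the mevalonate pathway from acetyl-CoA to the isoprenoid diphosphates, 11 make squalene and turn it into cholesterol, 4 belong to the SREBP control system, 1 carries sterols inside cells, 3 make fatty acids, and 5 act in efflux, LXR signaling, and turnover.

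Cells build cholesterol from acetyl-CoA through mevalonate, isoprenoids, squalene, and lanosterol. When sterols in the endoplasmic reticulum run low, SCAP escorts the SREBP factors to the Golgi, where they are cut and released to activate nearly all genes of the route, and INSIG proteins hold SCAP back when sterols are plentiful. The brain makes its own cholesterol behind the blood-brain barrier, mostly in oligodendrocytes for myelin and in astrocytes for supply to neurons, and neurons clear it through the hydroxylase CYP46A1. LXR receptors sense the resulting oxysterols and switch on the ABC transporters that export cholesterol.

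The study asked how much of the brain-wide disease of spinocerebellar ataxia type 1 model mice depends on binding of ATXN1 to the repressor CIC. Tissue came from the cortex, striatum, hippocampus, cerebellum, and brainstem of C57BL/6 mice aged 10 weeks, and poly(A) RNA of whole tissue was sequenced. The 3 genotypes were wildtype (WT), Atxn1_154Q/2Q (154Q), whose knock-in allele carries an expanded CAG repeat, and Atxn1_154Q[V591A;S602D]/2Q (154Q-AXH), whose expanded allele also carries substitutions in the AXH domain that abolish CIC binding. Every group held 4 libraries, except that the brainstem of 154Q-AXH held 3, and each library was labelled as 1 mouse. Both mutant genotypes kept 1 normal Atxn1 allele, and the alleles are present in every cell type. By the labels, the same 12 mice gave all regions, except that 154Q-AXH-217 had no brainstem library. They were WT-70 and WT-77 with WT-220 and WT-221, 154Q-69 and 154Q-71 with 154Q-75 and 154Q-76, and 154Q-AXH-207 and 154Q-AXH-209 with 154Q-AXH-217 and 154Q-AXH-218. All 154Q mice have low numbers and all 154Q-AXH mice high ones, with WT mice in both series, so 154Q-AXH and 154Q cannot be told apart from the number series.

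Counted read pairs ranged from 28.06 to 112.3 M per library, lowest in the striatum (28.06 to 54.72 M) and cortex (34.53 to 46.17 M). Summed region markers were higher in every library of the labelled cerebellum, brainstem, hippocampus, and striatum than in any library elsewhere, but the lowest cortical library (307.1 CPM, counts scaled to a common library size) lay under 1 striatal library (313.3 CPM). The hippocampal library of 154Q-76 stood apart: its median brainstem marker reached 46.34% of the WT brainstem level, against 0.02784% to 0.2741% in the other hippocampal libraries, and it held both Xist (188.5 CPM) and Ddx3y (54.18 CPM). The cortical library of WT-221 held Xist at 470.1 CPM, whereas the other 4 libraries of that mouse held 0.4084 to 5.892 CPM. It held Ddx3y at 0.8969 CPM, against 71.86 to 158.9 CPM in those 4, so it does not match the other libraries of that label. Sex was not balanced between genotypes: 154Q-75 and 154Q-AXH-217 held Xist at 424.5 to 1158 CPM in every region sequenced, and no WT mouse did apart from that cortical library. For 1 pair of cortical libraries, 154Q-76 and 154Q-AXH-207, the names of the deposited tables go against the sample labels, which were followed here. Calls that rest on these libraries were also tested without them. Exchanging the labels of the cortical pair lost no cortical call of a member. Without the cortical library of WT-221, no member call among WT regions was lost.

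SREBP factors act with NF-Y at promoters, so the promoters of 5 members that carry the mutant results are given 5′ to 3′ from RefSeq on GRCm38.p6, 250 bases before and 50 bases after the start. Capitals mark the sterol regulatory element TCACNCCAC or the NF-Y box CCAAT, which reads ATTGG when it lies on the opposite strand. Hmgcs1 (HMG-CoA synthase, chr13:119690101-119690400, plus strand), Mvd (mevalonate diphosphate decarboxylase, chr8:122443373-122443672, minus strand), Cyp51 (lanosterol demethylase, chr5:4104648-4104947, minus strand), Msmo1 (methylsterol monooxygenase, chr8:64733529-64733828, minus strand), and Cyp46a1 (cholesterol hydroxylase, chr12:108334066-108334365, plus strand) read as follows.
Hmgcs1: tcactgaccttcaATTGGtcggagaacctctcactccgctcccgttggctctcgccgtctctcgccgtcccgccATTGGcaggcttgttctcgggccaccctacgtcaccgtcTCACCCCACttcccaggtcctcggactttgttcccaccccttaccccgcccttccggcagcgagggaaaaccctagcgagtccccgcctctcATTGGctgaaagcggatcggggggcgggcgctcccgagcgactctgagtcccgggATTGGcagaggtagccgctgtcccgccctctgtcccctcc
Mvd: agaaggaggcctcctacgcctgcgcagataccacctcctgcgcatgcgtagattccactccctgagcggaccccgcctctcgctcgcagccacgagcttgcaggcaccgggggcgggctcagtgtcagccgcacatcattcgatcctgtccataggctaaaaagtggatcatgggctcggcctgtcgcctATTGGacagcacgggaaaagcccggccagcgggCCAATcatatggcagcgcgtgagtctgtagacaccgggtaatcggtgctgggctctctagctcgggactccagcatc
Cyp51: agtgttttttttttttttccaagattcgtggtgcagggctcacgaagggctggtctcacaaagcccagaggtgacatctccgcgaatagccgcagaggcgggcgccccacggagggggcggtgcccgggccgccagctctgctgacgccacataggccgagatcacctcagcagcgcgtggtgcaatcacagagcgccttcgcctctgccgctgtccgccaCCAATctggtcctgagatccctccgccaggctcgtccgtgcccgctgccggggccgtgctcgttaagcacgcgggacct
Msmo1: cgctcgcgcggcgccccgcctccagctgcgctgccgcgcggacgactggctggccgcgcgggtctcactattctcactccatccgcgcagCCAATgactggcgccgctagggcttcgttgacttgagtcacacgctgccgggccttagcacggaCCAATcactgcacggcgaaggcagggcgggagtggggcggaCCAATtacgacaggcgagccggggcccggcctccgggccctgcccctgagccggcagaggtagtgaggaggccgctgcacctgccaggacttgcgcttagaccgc
Cyp46a1: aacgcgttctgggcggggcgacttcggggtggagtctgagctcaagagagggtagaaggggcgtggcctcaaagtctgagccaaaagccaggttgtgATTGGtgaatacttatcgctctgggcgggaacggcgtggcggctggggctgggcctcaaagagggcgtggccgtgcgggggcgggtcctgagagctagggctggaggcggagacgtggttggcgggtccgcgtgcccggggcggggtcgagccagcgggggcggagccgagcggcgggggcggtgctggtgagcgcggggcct

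Hmgcs1 was the 1 member of 25 with a promoter entry (4.0%) that held TCACNCCAC on either strand, and 1.24% of 32851 promoters of that length did. The match in Hmgcs1 starts 137 bases before the gene start, and the same promoter holds 4 NF-Y boxes. CCAAT on either strand was found in 19 of the 25 members (76%) and in 37.4% of all promoters. Msmo1 holds 3 boxes, Mvd holds 2, and Cyp51 and Cyp46a1 hold 1 each. A direct repeat of the LXR half-site AGGTCA spaced by 4 bases was in 0 of 25 members and in 0.0152% of all promoters. A CIC octamer (T, G or C, AATG, A or G, and A, on either strand) was in 1 of 25 members (Tm7sf2, a sterol reductase) and in 3.84% of all promoters. Sqle, Fdft1, Fdps, Stard4, Scd1, Scd2, and Abcg1 had no entry.

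In WT mice, more members were higher in the brainstem than in any of the other 4 regions, and more were lower in the cerebellum. With each region set against the mean of the other 4 (adjusted p under 0.05 in edgeR and a log2 difference over 0.5), 18 of the 32 members were higher in the brainstem and 1 was lower, where 21.1% and 18.4% of all genes were. Of the mevalonate genes, 5 of 8 were higher there, and of the squalene and sterol genes 9 of 11. Largest were Scd1 and Scd2, the stearoyl-CoA desaturases (log2 difference 1.64 ± 0.06 (SE) and 1.16 ± 0.05), and Idi1, the isopentenyl diphosphate isomerase (1.12 ± 0.07). The lower member was Cyp46a1 (-1.54 ± 0.05).

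Cerebellar WT tissue held 6 members higher and 14 lower, against 24.9% and 24.7% of all genes. Higher there were Nr1h3, the gene for LXR alpha (1.24 ± 0.08), Stard4, which moves cholesterol between membranes (0.84 ± 0.08), and the exporter Abca1 (0.76 ± 0.06). Lower were Cyp46a1 (-2.13 ± 0.05), the squalene synthase Fdft1 (-1.25 ± 0.05), and Msmo1 (-1.04 ± 0.06). Of the mevalonate genes, 1 was higher and 5 were lower there, and of the squalene and sterol genes 1 and 6. Hippocampal tissue had 0 higher and 6 lower (18.2% and 12.5% of all genes), led by Stard4 (-1.05 ± 0.09), Insig1 (-0.83 ± 0.08), and Nr1h2, the gene for LXR beta (-0.81 ± 0.04).

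Cyp46a1, the turnover gene, led the members that were higher in striatum and cortex. It was 1.83 ± 0.04 (log2) above the mean of the other regions in the striatum and 1.59 ± 0.04 above it in the cortex. Per length, its WT level was 85.5 ± 5.0 CPM per kb (SD, n = 4) in the striatum, 74.7 ± 3.1 in the cortex, 36.4 ± 2.7 in the hippocampus, 13.6 ± 0.55 in the brainstem, and 9.95 ± 0.62 in the cerebellum. The striatum had 4 members higher and 1 lower (18.8% and 15.5% of all genes), with Mvd (0.70 ± 0.05) and the mevalonate kinase Mvk (0.63 ± 0.06) higher and the geranylgeranyl diphosphate synthase Ggps1 (-0.66 ± 0.05) lower. The cortex had 4 higher and 3 lower (16.1% and 15% of all genes). Higher there after Cyp46a1 were Srebf2, the SREBP gene most tied to cholesterol synthesis (0.67 ± 0.04), and Mvk (0.54 ± 0.06), and lower were Scd1 (-0.70 ± 0.07), Scd2 (-0.67 ± 0.05), and Ggps1 (-0.59 ± 0.05).

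**Figure D1:**
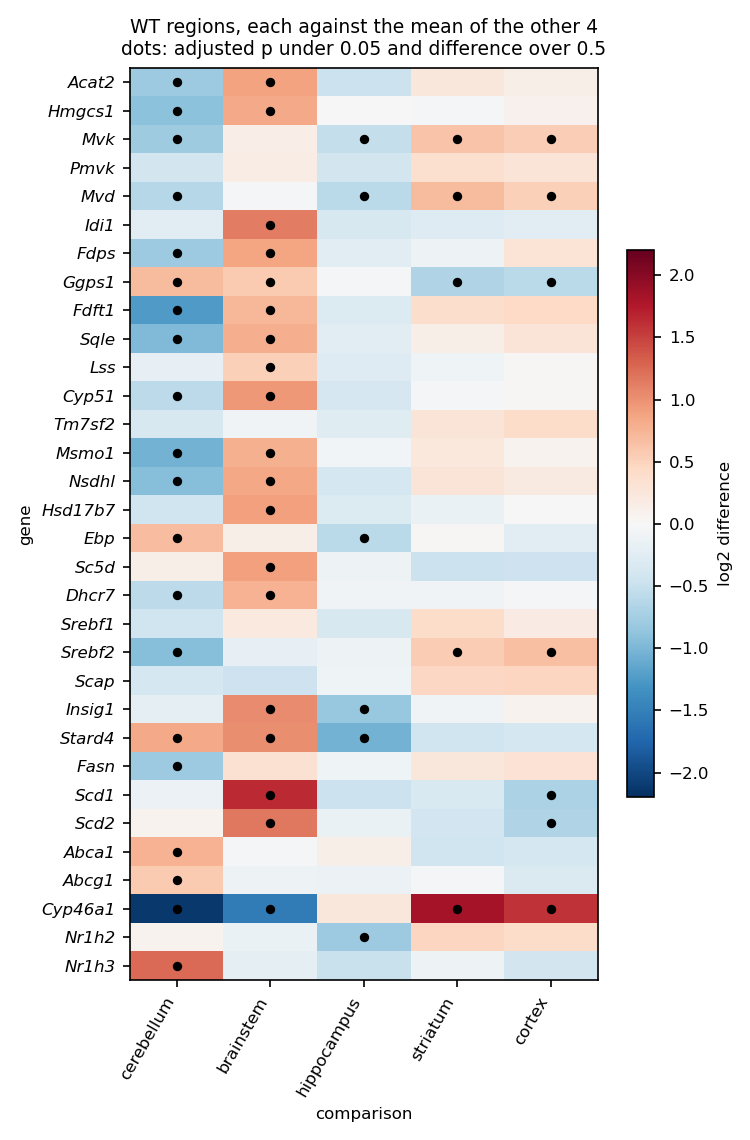
Log2 difference of each of the 32 members (rows, ordered by role) between a WT region and the mean of the other 4 WT regions (columns), as color. Dots mark an adjusted p under 0.05 with a difference over 0.5, and the brainstem column holds 18 dots for higher members while Cyp46a1 runs from -2.13 in the cerebellum to 1.83 in the striatum.

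Per length, Scd2 was the highest member in each WT region, at 582 ± 37 CPM per kb in the brainstem and 205 ± 8.8 in the cortex. Scd1 followed the same order of extremes, with 116 ± 5.2 and 30.8 ± 4.5 CPM per kb. Hmgcs1 was at 75.7 ± 7.9 CPM per kb in the brainstem and between 29.6 ± 3.3 (cerebellum) and 49.2 ± 3.3 (cortex) elsewhere. Fdps, the farnesyl diphosphate synthase, was the lowest, at 0.116 to 0.294 CPM per kb, and 26.7% of its exon bases lie in another annotated gene on the same strand, so its values are uncertain. Of the 10 oligodendrocyte markers, 10 were higher in the brainstem (median log2 difference 1.33), 6 lower in the cerebellum (-0.661), 3 lower in the hippocampus (-0.453), 2 higher in the striatum (0.418), and 6 lower in the cortex (-0.566). The medians of the 32 members in the same order were 0.657, -0.42, -0.287, 0.00301, and 0.0915. Of 6 astrocyte markers, 5 were higher and 1 lower in the brainstem (0.776), 3 higher and 2 lower in the cerebellum (0.522), 1 higher and 1 lower in the hippocampus (-0.0473), 3 lower in the striatum (-0.499), and 2 lower in the cortex (-0.163). Their part in the regional levels was not tested.

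In the cortex of 154Q mice, 9 of the 32 members fell and 1 rose (edgeR, adjusted p under 0.05), where 6.71% of all genes fell and 4.4% rose. The median log2 fold change of the members was -0.102, beside 0.00927 over all genes, and 24 of 32 were negative. Of the mevalonate genes 4 of 8 fell, of the squalene and sterol genes 3 of 11, and the other calls were Insig1, Scap, and Cyp46a1. In bulk tissue, fewer cells of a type and less RNA per cell cannot be told apart.

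The mevalonate genes that fell in 154Q cortex were Acat2, Hmgcs1, Mvd, and Idi1, whereas the kinase genes Mvk (0.11 ± 0.048, adjusted p = 0.152) and Pmvk (0.06 ± 0.067, adjusted p = 0.604) did not pass and stood above 0. Within each genotype, values of single libraries are given in ascending order of mouse number. The genes shown by library were picked by their calls in these libraries, so gaps between their groups add no support. Hmgcs1 (chr13:119690379-119708260, plus strand), which makes HMG-CoA, was at 212.3, 246.6, 216.9, and 227.8 CPM in WT, 178.2, 190.7, 169.9, and 173.9 CPM in 154Q, and 187, 184.1, 203.7, and 190.4 CPM in 154Q-AXH. Every mutant library of both genotypes lay under every WT library. The log2 fold change was -0.34 ± 0.055 (adjusted p = 0.000974) in 154Q and -0.24 ± 0.055 (adjusted p = 0.0141) in 154Q-AXH. The final decarboxylation to isopentenyl diphosphate is the work of Mvd (chr8:122433601-122443422, minus strand), which was at 26.77, 26.52, 25.29, and 25.54 CPM in WT, 22.18, 19.4, 21.16, and 21.08 CPM in 154Q, and 21.95, 21.58, 24.46, and 23.19 CPM in 154Q-AXH. Again no mutant library reached the WT range. Mvd fell by 0.31 ± 0.058 on the log2 scale in 154Q (adjusted p = 0.00286), and its value in 154Q-AXH was -0.19 ± 0.058 (adjusted p = 0.0621).

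Idi1 (chr13:8885501-8892451, plus strand), which converts isopentenyl diphosphate to its isomer, was at 24.24, 27.62, 25.49, and 25.88 CPM in WT, 19.21, 19.4, 21.33, and 20.14 CPM in 154Q, and 21.9, 20.65, 22.02, and 22.42 CPM in 154Q-AXH. The WT libraries lay above all 8 mutant libraries. Its log2 fold change was -0.37 ± 0.058 (adjusted p = 0.000846) in 154Q, the largest drop of the members in this region, and -0.25 ± 0.058 (adjusted p = 0.0161) in 154Q-AXH. Acat2, which joins acetyl-CoA units at the start of the route, fell in 154Q (-0.19 ± 0.053, adjusted p = 0.0296) and stood at -0.14 ± 0.053 (adjusted p = 0.126) in 154Q-AXH. Counts ignore strand, and 12.1% of the exon bases of Hmgcs1 and 9.2% of those of Idi1 are shared with annotated transcripts, so those reads cannot be assigned to 1 gene.

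The squalene and sterol genes that fell were Fdft1, Cyp51, and Msmo1, in both mutants. Fdft1 (chr14:63145150-63179578, minus strand) makes squalene, and 18.3% of its exon bases overlap Ctsb on the opposite strand. It was at 99.15, 112.4, 103.8, and 106.9 CPM in WT, 83.16, 90.2, 89.82, and 95.54 CPM in 154Q, and 91.34, 93.59, 89.59, and 85.29 CPM in 154Q-AXH. All 4 libraries of each mutant were under the lowest WT library. The log2 fold changes were -0.23 ± 0.052 (adjusted p = 0.00945) in 154Q and -0.23 ± 0.052 (adjusted p = 0.0138) in 154Q-AXH.

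Cyp51 (chr5:4081145-4104746, minus strand), which demethylates lanosterol, was at 90.36, 89.56, 89.25, and 95.4 CPM in WT, 73.63, 75.51, 76.26, and 73.83 CPM in 154Q, and 79.16, 79.42, 80.3, and 75.75 CPM in 154Q-AXH. Libraries of 154Q were lowest, those of 154Q-AXH lay just above or among them, and WT was apart from both. The log2 fold changes were -0.28 ± 0.040 (adjusted p = 0.000363) and -0.21 ± 0.040 (adjusted p = 0.00447). Msmo1 (chr8:64718139-64733792, minus strand), which removes methyl groups from sterols after Cyp51, was at 94.72, 105.9, 100.9, and 97.65 CPM in WT, 79.8, 85.15, 84.92, and 85.3 CPM in 154Q, and 87.79, 84.95, 90.67, and 87.64 CPM in 154Q-AXH. WT did not overlap either mutant, and 154Q-69 was the lowest library. Msmo1 fell in 154Q (-0.25 ± 0.045, adjusted p = 0.00214) and in 154Q-AXH (-0.19 ± 0.045, adjusted p = 0.0206). Enzymes of the same stretch that did not pass in 154Q included Sqle, the squalene epoxidase (-0.06 ± 0.046, adjusted p = 0.434), Lss, the lanosterol synthase (0.03 ± 0.086, adjusted p = 0.850), and Dhcr7, which acts at the end of the route (-0.15 ± 0.060, adjusted p = 0.133).

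**Figure D2:**
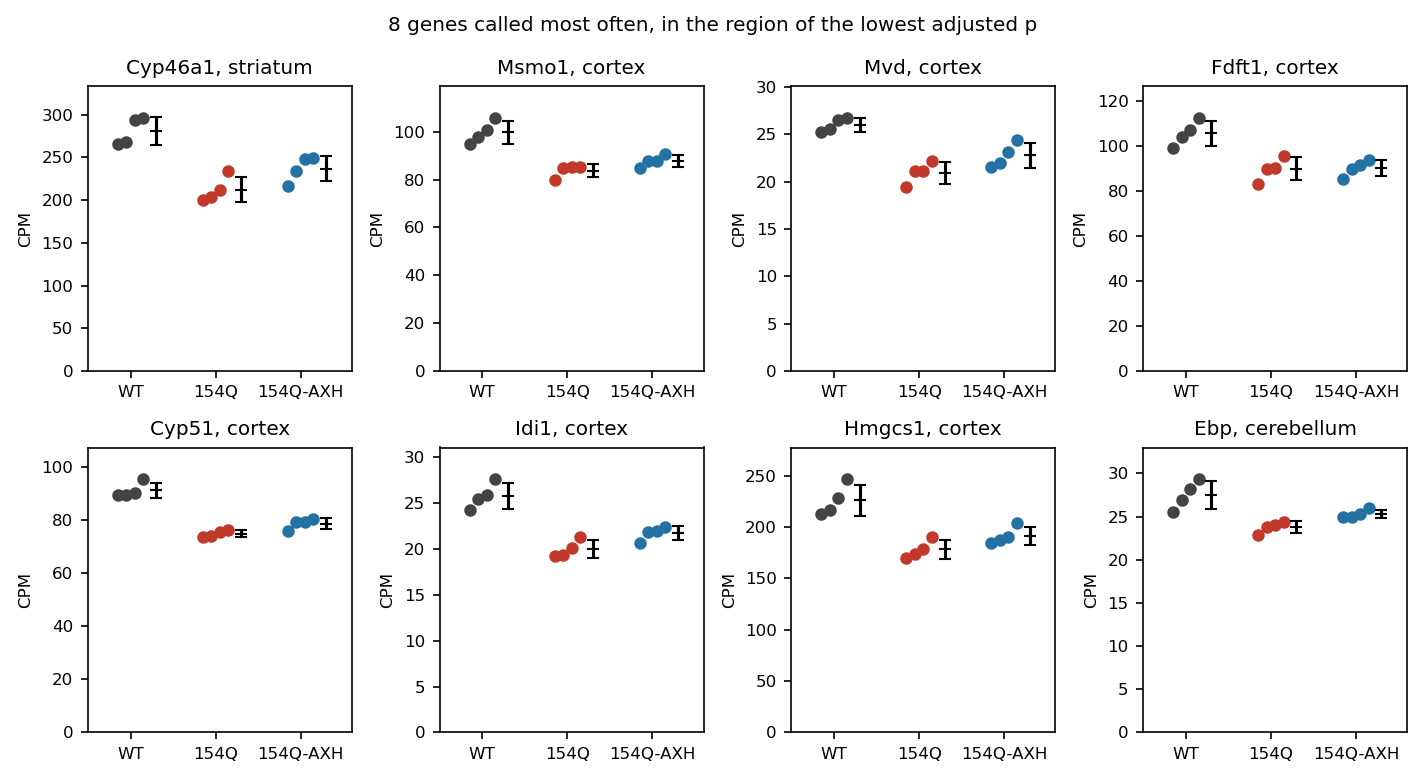
CPM (vertical axis, from 0) in each library by genotype for 8 members, each in the region of its lowest adjusted p, with a bar and whiskers for the mean ± SD. Every 154Q library lies under every WT library in all 8 panels, and so does every 154Q-AXH library except in the panel of Ebp in the cerebellum. Genes and regions were picked by their adjusted p in these same libraries, so the separation adds no support.

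Control genes were mixed in the cortex of 154Q mice. Insig1, whose product holds SCAP in the endoplasmic reticulum and which is itself an SREBP target, fell (-0.29 ± 0.074, adjusted p = 0.0194), and Scap rose (0.16 ± 0.046, adjusted p = 0.0355). Srebf2 stood at -0.09 ± 0.043 (adjusted p = 0.193) and Srebf1 at 0.17 ± 0.075 (adjusted p = 0.169). Among the efflux and turnover genes, Cyp46a1 fell (-0.22 ± 0.049, adjusted p = 0.00863) and Abca1 stood at 0.20 ± 0.070 (adjusted p = 0.0772). The fatty acid synthase Fasn (0.02 ± 0.069, adjusted p = 0.888), Scd1, Scd2, and Stard4 were not called. The 22 members that did not pass ranged from -0.17 (Stard4) to 0.20 (Abca1).

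In the cortex of 154Q-AXH mice, which share the WT libraries with the comparison above, 6 members fell and 0 rose, where 4.76% of all genes fell and 2.39% rose. The 6 were Hmgcs1, Idi1, Fdft1, Cyp51, Msmo1, and Cyp46a1 (-0.24 ± 0.049, adjusted p = 0.00696). Insig1 stood at -0.25 ± 0.074 (adjusted p = 0.0582). The median over the 32 members was -0.082, beside 0.00198 over all genes, and 21 were negative. Members that did not pass ranged from -0.25 (Insig1) to 0.20 (Srebf1).

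In the cortex, summed astrocyte markers lay under WT in both mutants, whereas summed oligodendrocyte markers overlapped WT in both. Summed astrocyte markers (6 genes) were 2210 to 2376 CPM in WT, 1876 to 2045 CPM in 154Q, and 1878 to 2131 CPM in 154Q-AXH cortex, and 4 of the 6 fell in 154Q (median -0.221) and 1 in 154Q-AXH (median -0.191). Oligodendrocyte markers (10 genes) summed to 6150 to 7633, 4889 to 6571, and 6055 to 7777 CPM, with 0 called and medians of -0.286 and -0.00677. None of the defining markers was at 0. With the oligodendrocyte level as a covariate 8 members were called in 154Q and 6 in 154Q-AXH (3.59% and 6.97% of all genes). With the astrocyte level as a covariate, a fit chosen after seeing the data, 3 were called in each (0.602% and 1.79% of all genes). There, Hmgcs1 (-0.49 ± 0.101) and Mvd (-0.50 ± 0.105) were lower and Srebf1 (0.55 ± 0.103) was higher in 154Q, and Hmgcs1 (-0.34 ± 0.076) and Cyp46a1 (-0.36 ± 0.064) were lower and Srebf1 (0.44 ± 0.076) was higher in 154Q-AXH. That covariate was the mean log2 CPM of the markers. Because the astrocyte sums of WT and the mutants did not overlap, it may follow genotype. The changed calls cannot be assigned to marker level or genotype.

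With the number series of the mice as a covariate, 6 members were called in 154Q cortex (Hmgcs1, Mvd, Idi1, Cyp51, Msmo1, and Cyp46a1), where 4.28% of all genes were. In 154Q-AXH, where 3.07% were, 1 was called, Cyp51 (-0.23 ± 0.050, adjusted p = 0.0230). Without WT-221 the cortex gave 7 and 6 called members, and without the pair of libraries with crossed names 10 and 3. Leaving out 154Q-AXH-209 cut the 154Q-AXH count to 3. Counts with libraries left out are not set against the share of all genes in the same fit. Hmgcs1, Mvd, Idi1, Fdft1, Cyp51, Msmo1, and Cyp46a1 kept their 154Q calls whichever cortical library was left out, whereas Acat2 lost its call without WT-77, WT-220, WT-221, 154Q-69, or 154Q-71, Insig1 without WT-221 or 154Q-69, and Scap without WT-70, WT-220, WT-221, 154Q-69, 154Q-71, or 154Q-AXH-209. In 154Q-AXH, Cyp51 and Cyp46a1 kept their calls. Fdft1 lost its call without 154Q-AXH-218, Hmgcs1 without 154Q-AXH-207 or 154Q-AXH-209, Idi1 without WT-77 or 154Q-AXH-209, and Msmo1 without WT-77, WT-220, 154Q-AXH-207, 154Q-AXH-209, or 154Q-AXH-218.

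**Figure D3:**
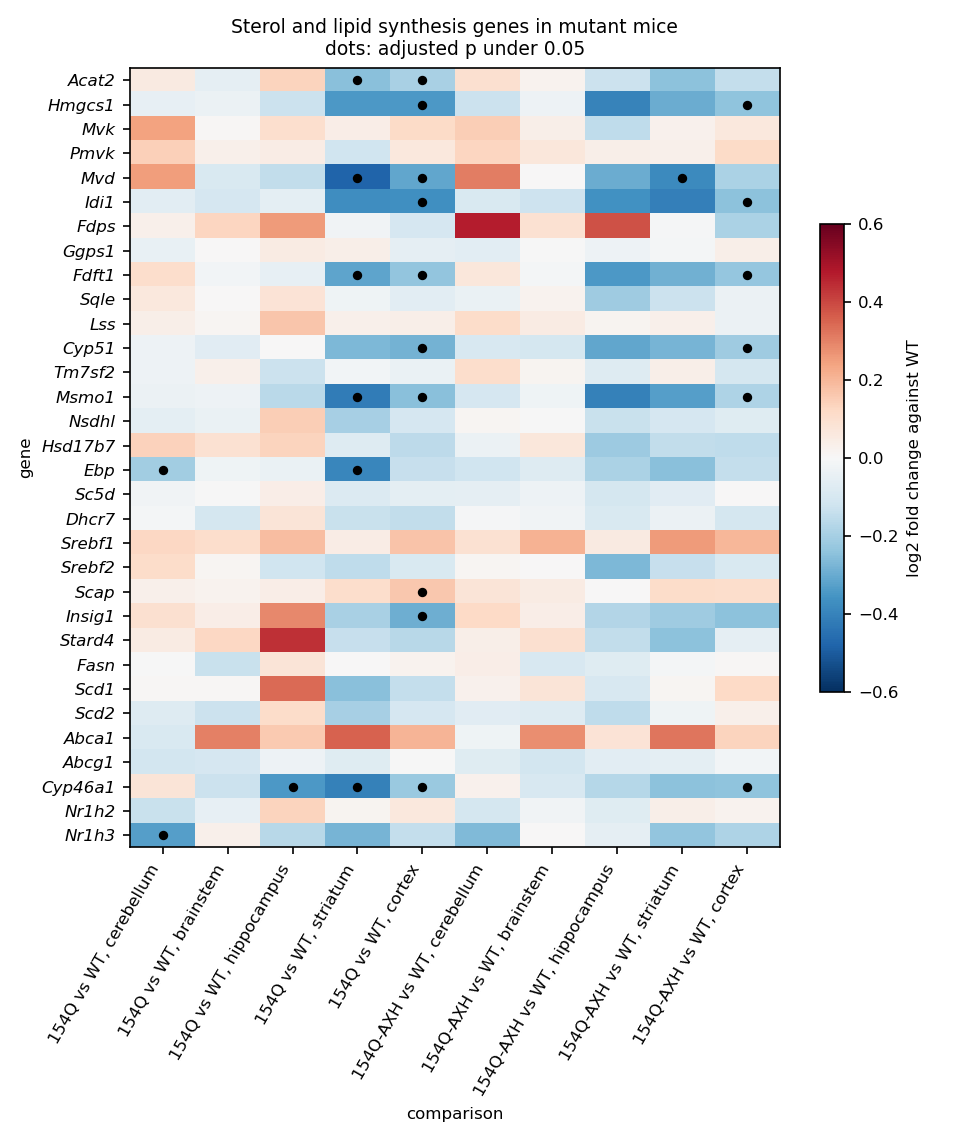
Log2 fold change against WT (color, scale cut at 0.6 in either direction) of the 32 members (rows, ordered by role) in the 10 comparisons of a mutant genotype and region with WT (columns), with dots for an adjusted p under 0.05. The cortex of 154Q holds 10 dots, the striatum of 154Q holds 6, and the brainstem columns hold none.

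In the striatum of 154Q mice, 6 members fell and 0 rose, where 3.77% of all genes fell and 1.92% rose. They were Acat2 and Mvd of the mevalonate pathway, Fdft1, Msmo1, and Ebp of the squalene and sterol steps, and Cyp46a1. The median over the members was -0.136, beside -0.0102 over all genes, and 24 of 32 were negative. Cyp46a1 (chr12:108334381-108362234, plus strand) was at 296.5, 265.1, 293.8, and 268.1 CPM in WT, 233.5, 203.3, 200.1, and 212.1 CPM in 154Q, and 216.8, 233.8, 249.4, and 247.7 CPM in 154Q-AXH. All 8 mutant libraries lay under the lowest WT library, and the 154Q libraries reached lower values than 154Q-AXH. The log2 fold change was -0.40 ± 0.072 (adjusted p = 0.00672) in 154Q and -0.25 ± 0.072 (adjusted p = 0.135) in 154Q-AXH.

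Mvd showed the largest drop in the striatum, from 28.6 ± 1.9 CPM (SD, n = 4) in WT to 20.5 ± 0.84 CPM in 154Q and 21.9 ± 2.1 CPM in 154Q-AXH. It fell in both (-0.48 ± 0.080, adjusted p = 0.00482, and -0.38 ± 0.080, adjusted p = 0.0365), and was the 1 member called in 154Q-AXH striatum, where 1.08% of all genes fell and 0.277% rose. In 154Q, Msmo1 fell by 0.42 ± 0.078 (adjusted p = 0.00868), Ebp, a sterol isomerase, by 0.39 ± 0.092 (adjusted p = 0.0274), Fdft1 by 0.32 ± 0.070 (adjusted p = 0.0218), and Acat2 by 0.25 ± 0.056 (adjusted p = 0.0226). Hmgcs1 (-0.34 ± 0.106, adjusted p = 0.0785), Idi1 (-0.37 ± 0.114, adjusted p = 0.0768), and Cyp51 (-0.27 ± 0.082, adjusted p = 0.0741), called in the cortex, did not pass in the striatum. In 154Q-AXH striatum the nearest to the threshold after Mvd were Acat2 (-0.25 ± 0.057, adjusted p = 0.0564), Msmo1 (-0.33 ± 0.078, adjusted p = 0.0598), and Fdft1 (-0.29 ± 0.070, adjusted p = 0.0707), and the median over the members was -0.0827.

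Striatal oligodendrocyte markers summed to 10170 to 16870 CPM in WT, 7377 to 8905 CPM in 154Q, and 6783 to 16370 CPM in 154Q-AXH. None of the 10 was called, all 10 were negative in 154Q (median -0.514), and the median was -0.102 in 154Q-AXH. Astrocyte markers summed to 2052 to 2239, 1659 to 1743, and 1716 to 2006 CPM, and 2 of 6 fell in 154Q (median -0.287). With the oligodendrocyte level as a covariate, 9 members were lower and 1 higher in 154Q, and 5 lower and 1 higher in 154Q-AXH (7.41% and 4.22% of all genes). With the astrocyte level, 0 members were called in either (0.163% and 0.179% of all genes), and Mvd stood at -0.40 ± 0.236 (adjusted p = 0.375) in 154Q. Striatal astrocyte sums of WT did not overlap those of either mutant, and striatal oligodendrocyte sums of WT did not overlap those of 154Q. These covariates may thus follow genotype. Neither the calls lost with the astrocyte level nor the 154Q calls added with the oligodendrocyte level can be assigned to marker level or genotype. With the number series as a covariate, Mvd alone was called in 154Q (-0.49 ± 0.100, adjusted p = 0.0389) and 0 in 154Q-AXH (1.27% and 0.809% of all genes).

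Leaving out 1 striatal library at a time gave 3 to 9 calls in 154Q, with 3 without WT-77 or any of the 154Q mice and 9 without WT-220. Mvd, Msmo1, and Cyp46a1 kept their calls throughout. Acat2 lost its call without WT-77, 154Q-AXH-209, or any 154Q mouse, Ebp without WT-77, WT-220, or any 154Q mouse, and Fdft1 without WT-77, WT-221, or any 154Q mouse. In 154Q-AXH the count was 6 without WT-220, 2 without 154Q-AXH-218, and 0 without WT-77, WT-221, 154Q-AXH-217, 154Q-AXH-209, 154Q-AXH-207, or any 154Q mouse, and Mvd lost its call in each of these last and without WT-70.

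**Figure D4:**
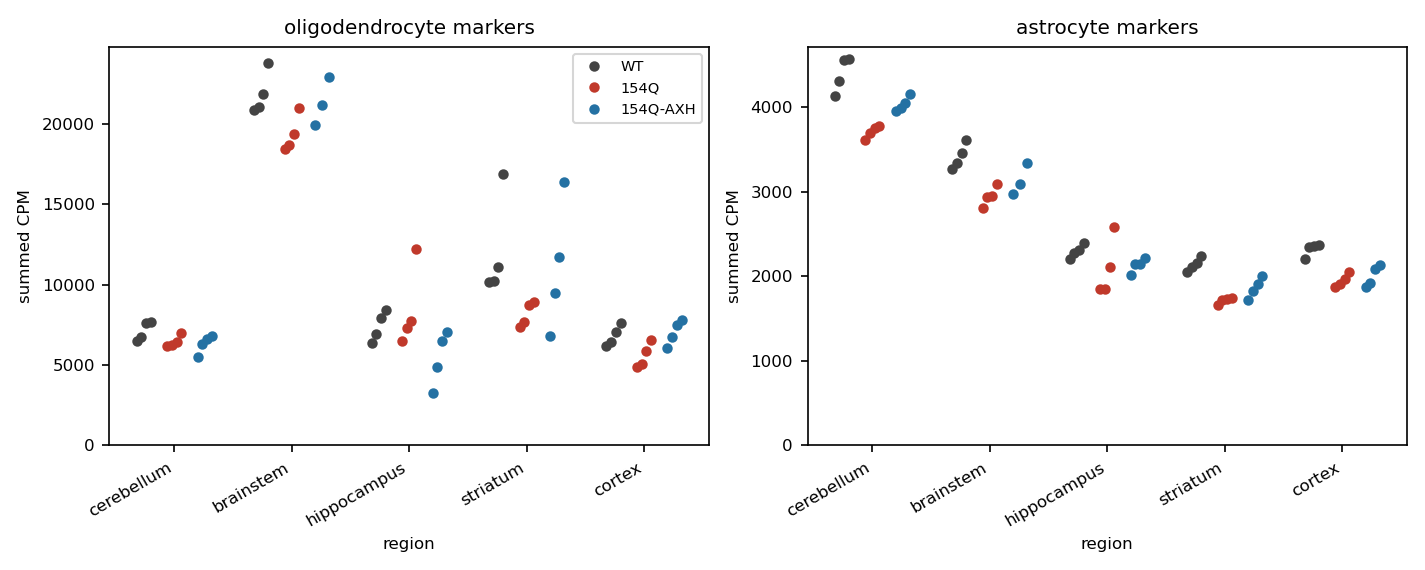
Summed CPM of the oligodendrocyte markers and of the astrocyte markers (vertical axes) in each library by region and genotype. In the striatum the 154Q libraries lie under all WT libraries for both lists, and the astrocyte sums of 154Q cortex (1876 to 2045 CPM) lie under those of WT (2210 to 2376 CPM).

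In the hippocampus of 154Q mice, with all libraries, 1 member fell, where 3.39% of all genes fell and 2.52% rose. It was Cyp46a1, at 131.1, 116, 121, and 110.6 CPM in WT, 95.59, 104.5, 98.51, and 78.11 CPM in 154Q, and 108.8, 99.94, 112.1, and 104.4 CPM in 154Q-AXH. All 154Q libraries lay under every WT library, and 154Q-76 was the lowest. The log2 fold change was -0.35 ± 0.084 (adjusted p = 0.0317), against -0.17 ± 0.084 (adjusted p = 0.372) in 154Q-AXH. The 154Q call was lost without WT-70, WT-220, or 154Q-69, in a fit of only 154Q and WT (adjusted p = 0.0759), with the number series as a covariate (adjusted p = 0.0638), and with Xist as a covariate (adjusted p = 0.0916). In 154Q-AXH, 0 members were called (edgeR, 5 at an unadjusted p under 0.05, 1 in DESeq2), where 1.3% of all genes were, although 26 of 32 were negative and the median was -0.132, beside 0.000175 over all genes.

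The library of 154Q-76 that held brainstem markers was high for synthesis genes. Msmo1 was at 97.22, 106.5, 86.47, and 88.4 CPM in WT, 70.66, 76.58, 78.96, and 112.6 CPM in 154Q, and 75.28, 66.07, 76.95, and 67.69 CPM in 154Q-AXH. The 3 other 154Q libraries and all 154Q-AXH libraries were under the WT range, whereas 154Q-76 was above it. Cyp51 was at 77.78, 77.32, 71.58, and 72.27 CPM in WT, 57.06, 67.73, 65.75, and 108.4 CPM in 154Q, and 61.97, 58.87, 62.58, and 57.41 CPM in 154Q-AXH, with the same order. Mvd was at 15.44, 14.54, 13.21, and 14.04 CPM in WT, 11.36, 11.6, 11.92, and 16.72 CPM in 154Q, and 11.76, 11.22, 12.3, and 11.33 CPM in 154Q-AXH, and here too 154Q-76 was above WT and the other 7 mutant libraries below it.

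Without that library, 4 members were lower in 154Q, where 3.61% of all genes were: Cyp51 (-0.24 ± 0.065, adjusted p = 0.0468), Msmo1 (-0.34 ± 0.082, adjusted p = 0.0327), Mvd (-0.31 ± 0.069, adjusted p = 0.0223), and Cyp46a1 (-0.28 ± 0.065, adjusted p = 0.0291). In 154Q-AXH, 7 were lower, where 2.06% of all genes were. They were Cyp51 (-0.31 ± 0.060, adjusted p = 0.0153), Msmo1 (-0.41 ± 0.076, adjusted p = 0.0130), Mvd (-0.30 ± 0.064, adjusted p = 0.0258), Idi1, Hmgcs1, Fdft1, and Srebf2 (-0.27 ± 0.058, adjusted p = 0.0256). No 154Q-AXH or WT library was removed in that fit, in which the 3 genotypes share 1 estimate of the spread. Oligodendrocyte markers summed to 6395 to 8429 CPM in WT, 6493 to 12240 CPM in 154Q, and 3266 to 7062 CPM in 154Q-AXH hippocampus (medians 0.192 and -0.437, 0 of 10 called). Astrocyte markers summed to 2199 to 2392 CPM in WT and 2013 to 2212 CPM in 154Q-AXH, and to 1845, 1848, and 2113 CPM in the 154Q libraries other than that of 154Q-76, which stood at 2579 CPM. With that library removed and the oligodendrocyte level as a covariate, a fit chosen after seeing the data, the 154Q count was 4 and the 154Q-AXH count 1 (Hsd17b7, a sterol ketoreductase, -0.29 ± 0.067, adjusted p = 0.0449). These last counts are not set against the share of all genes in the same fit, so they are not read as particular to the members.

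**Figure D5:**
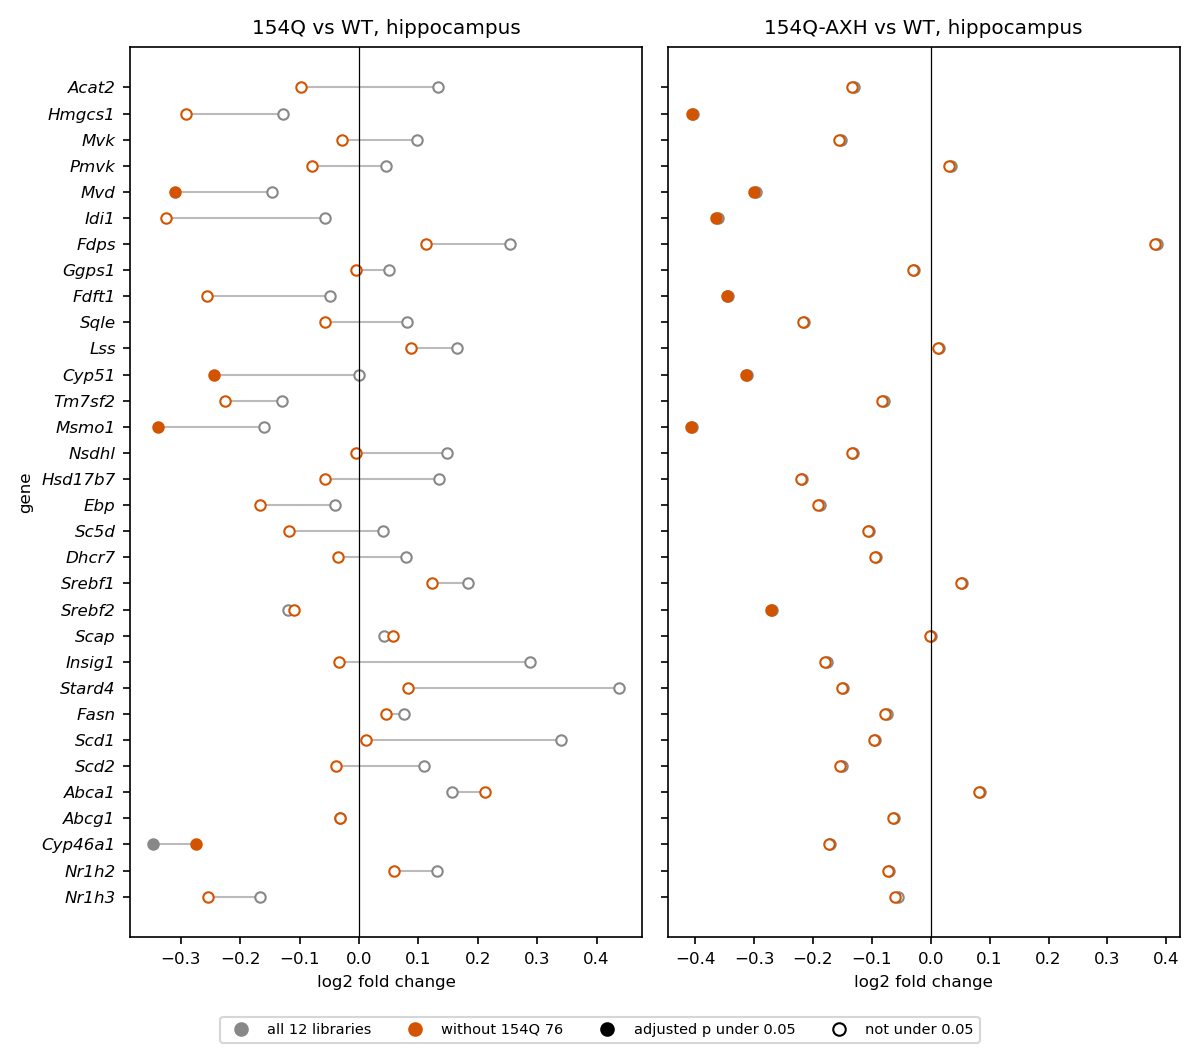
Log2 fold change against WT of the members in the hippocampus with all 12 libraries (grey) and without the library of 154Q-76 (orange), filled where the adjusted p is under 0.05. Without it, 4 members of 154Q and 7 of 154Q-AXH are filled, all at negative values, where 1 and 0 are with all libraries.

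In the cerebellum, the members did not move together. In 154Q, 2 fell and 0 rose, where 3.12% of all genes fell and 2.1% rose, and the median was 0.00348, beside 0.00123 over all genes. Ebp (chrX:8185329-8193512, minus strand) was at 26.96, 25.49, 29.33, and 28.18 CPM in WT, 23.8, 24.06, 22.89, and 24.39 CPM in 154Q, and 24.92, 25.31, 24.94, and 26.02 CPM in 154Q-AXH. The 154Q libraries lay under every WT library, and 154Q-AXH overlapped WT through 154Q-AXH-218 and WT-77. The log2 fold change was -0.21 ± 0.048 (adjusted p = 0.0207) in 154Q and -0.12 ± 0.048 (adjusted p = 0.245) in 154Q-AXH. Ebp is X-linked, and with Xist as a covariate it stood at -0.20 (adjusted p = 0.0338), while the call was lost without 154Q-75, 1 of the mice with high Xist, or without WT-220 or WT-221. The Ebp call was also lost in edgeR with no filter on low counts (adjusted p = 0.0569) and in a fit of only 154Q and WT (adjusted p = 0.0723). As covariates, the number series (adjusted p = 0.142) and the astrocyte level (adjusted p = 0.328) ended it too. Nr1h3 fell in 154Q (-0.33 ± 0.074, adjusted p = 0.0172) and stood at -0.26 ± 0.073 (adjusted p = 0.0825) in 154Q-AXH.

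Mvd, which fell in the cortex and striatum, was in the cerebellum at 14.4 ± 1.5 CPM in WT, 17.0 ± 1.6 CPM in 154Q, and 17.7 ± 1.3 CPM in 154Q-AXH (0.25 ± 0.086, adjusted p = 0.121, and 0.31 ± 0.085, adjusted p = 0.0800). In 154Q-AXH, 0 members were called (edgeR, 5 at an unadjusted p under 0.05, 2 in DESeq2), where 2.21% of all genes were. Cerebellar astrocyte markers, which Bergmann glia also express, summed to 4131 to 4569 CPM in WT, 3617 to 3780 CPM in 154Q, and 3951 to 4161 CPM in 154Q-AXH, and 2 of 6 fell in 154Q (median -0.15). With the astrocyte level as a covariate the called member was Mvd, higher in both mutants (0.48 ± 0.101, adjusted p = 0.0327, and 0.41 ± 0.075, adjusted p = 0.0161). Cerebellar astrocyte sums of WT and 154Q did not overlap, so for 154Q this covariate may follow genotype too. The calls of that fit are not set against its share of all genes, so they are not read as particular to the members. The count of 2 in 154Q ran from 0 without WT-220 to 4 without WT-70, and was 1 without 154Q-75 or 154Q-76. Without WT-70, 1 member was called in 154Q-AXH.

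In the brainstem, where 18 members were higher in WT than in the other regions, 0 members were called in 154Q (edgeR, 7 at an unadjusted p under 0.05, 1 in DESeq2) and 0 in 154Q-AXH (3 at an unadjusted p under 0.05, 0 in DESeq2). Of all genes, 0.538% were called in 154Q and 0.0138% in 154Q-AXH. Member log2 fold changes ranged from -0.14 (Fasn) to 0.30 (Abca1) in 154Q and from -0.12 (Idi1) to 0.28 (Abca1) in 154Q-AXH. Fdft1 was at 129 ± 4.0, 127 ± 11, and 128 ± 9.4 CPM in WT, 154Q, and 154Q-AXH, differences smaller than the spread between mice. Astrocyte markers summed to 3266 to 3608, 2805 to 3094, and 2970 to 3336 CPM, and 2 of 6 fell in 154Q.

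Whether a genotype effect differed between regions was tested by the interaction of genotype and region over the libraries of 2 genotypes. In 154Q, 2 of 32 members passed, where 5.71% of all genes did: Mvd (F = 9.33, adjusted p = 0.00239) and Cyp46a1 (F = 8.20, adjusted p = 0.00514). In 154Q-AXH, 2 passed, where 1.33% of all genes did: Mvd (F = 14.3, adjusted p = 0.000518) and Fdft1 (F = 6.66, adjusted p = 0.0403). The log2 fold change of Mvd in 154Q ran from 0.25 ± 0.086 in the cerebellum through -0.09 ± 0.067 in the brainstem and -0.15 ± 0.113 in the hippocampus to -0.31 ± 0.058 in the cortex and -0.48 ± 0.080 in the striatum. Without the library of 154Q-76 the hippocampal value was -0.31 ± 0.069, level with the cortex.

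Cyp46a1 in 154Q ran from 0.08 ± 0.046 in the cerebellum through -0.13 ± 0.044 in the brainstem to -0.22 ± 0.049, -0.35 ± 0.084, and -0.40 ± 0.072 in the cortex, hippocampus, and striatum. Its hippocampal value was -0.28 without the library of 154Q-76, nearer that of the cortex. Fdft1 in 154Q-AXH ran from -0.34 ± 0.146 in hippocampus, -0.29 ± 0.070 in striatum, and -0.23 ± 0.052 in cortex to -0.01 ± 0.064 in the brainstem and 0.07 ± 0.062 in the cerebellum. With the mouse as a replicate block, 4 members passed in each model, in 154Q Mvd, Cyp46a1, Abca1 (F = 5.29, adjusted p = 0.0430), and Srebf2 (F = 5.15, adjusted p = 0.0467), and in 154Q-AXH Mvd, Fdft1, Msmo1 (F = 7.18, adjusted p = 0.0372), and Cyp46a1 (F = 6.93, adjusted p = 0.0421). Without the libraries that stand apart, Mvd, Cyp46a1, Msmo1, and Fdft1 passed in 154Q and Mvd alone in 154Q-AXH. The shares of all genes given for the interactions belong to the main fits and do not apply to these counts. Counts of the other fits are thus not read as particular to the members. Fdft1 lost its 154Q-AXH call without WT-70, WT-77, WT-220, WT-221, 154Q-AXH-207, or 154Q-AXH-209, and the 154Q count was 4 without 154Q-76.

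The direct comparison of 154Q-AXH with 154Q, which asks what the loss of CIC binding changes on the expanded allele, called 0 members in each of the 5 regions in edgeR and in DESeq2, where 0.0335% of all genes were called in the cerebellum and 0% elsewhere. At an unadjusted p under 0.05 there were 9 in the hippocampus, 2 each in cerebellum, striatum, and cortex, and 0 in the brainstem. Without the hippocampal library of 154Q-76, the 9 became 2, Hsd17b7 and Srebf2, and 0 were called. In the cortex the difference (154Q-AXH minus 154Q) was 0.12 ± 0.059 for Mvd, 0.12 ± 0.058 for Idi1, 0.10 ± 0.055 for Hmgcs1, and 0.07 ± 0.040 for Cyp51. Fdft1 (0.00 ± 0.053) and Cyp46a1 (-0.02 ± 0.049) were nearer 0. These cortical values follow the sample labels. With the labels of the cortical pair with crossed names exchanged, or both libraries removed, no member was called in the cortex either. Striatal Cyp46a1 stood at 0.16 ± 0.072 (adjusted p = 0.945). A member called in 1 mutant and not in the other is thus not shown to differ between them.

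Across the 10 comparisons with WT, 12 of the 32 members (37.5%) were called at least once and 20 never. Of the 17540 genes tested in all 5 regions, 21.9% were called at least once. The 20 included all 3 fatty acid genes, Stard4, Sqle, Lss, Dhcr7, Srebf1, Srebf2, Abca1, Abcg1, and Nr1h2. Cyp46a1 was the member called most often, in 4 comparisons (154Q in hippocampus, striatum, and cortex, and 154Q-AXH in cortex), and Mvd, Fdft1, and Msmo1 were called in 3 each. The comparisons share the WT libraries, so these counts are not independent.

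A wider list of 28 sterol and lipid genes outside the members gave 3 calls in 154Q cortex and 3 in 154Q-AXH cortex, where 11.1% and 7.15% of all genes were called. Tmem97, an endoplasmic reticulum protein of sterol handling, fell in the cortex of 154Q (-0.42 ± 0.070, adjusted p = 0.00125) and in 154Q-AXH (-0.48 ± 0.070, adjusted p = 0.000692). Its range was 19.2 to 20.1 CPM in WT, 12.7 to 15.3 CPM in 154Q, and 13.3 to 15.4 CPM in 154Q-AXH, with no overlap with WT. Mylip, an LXR target whose ubiquitin ligase degrades lipoprotein receptors, rose in both (0.34 ± 0.078, adjusted p = 0.0110, and 0.29 ± 0.078, adjusted p = 0.0329). Acss2, a source of acetyl-CoA, fell in 154Q (-0.20 ± 0.049, adjusted p = 0.0166), and the malic enzyme Me1, a source of NADPH, rose in 154Q-AXH (0.26 ± 0.069, adjusted p = 0.0300).

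Elsewhere the wider list gave 1 call each in 154Q striatum (Tmem97, -0.47 ± 0.111, adjusted p = 0.0281), 154Q cerebellum (the sterol hydroxylase Cyp27a1, -0.33 ± 0.057, adjusted p = 0.00319), and 154Q brainstem (the fatty acid desaturase Fads1, -0.19 ± 0.037, adjusted p = 0.0490), and 0 in 154Q hippocampus and in 154Q-AXH of the other 4 regions. Of all genes, 5.69%, 5.22%, 0.538%, and 5.91% were called in 154Q striatum, cerebellum, brainstem, and hippocampus. In 154Q-AXH of those regions, 0.0138% to 2.21% were. The median log2 fold change of the wider list was -0.0601 in 154Q cortex and -0.0745 in 154Q striatum, beside 0.00927 and -0.0102 over all genes.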

How the data were processed

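Poly(A) RNA libraries from 5 brain regions were sequenced as read pairs, and according to the submitters' processing notes and the methods reads were trimmed with Trimmomatic 0.36 and aligned to GRCm38.p6 (mm10) with STAR 2.7.2d. The notes also name DESeq2 1.28.1, and the methods name another DESeq2 version. The authors deposited whole, unnormalized counts of read pairs per gene for each library, of which the column without regard to strand was used, since the strands held near-equal shares (48.9% to 50.1%). The 4 summary lines and 1 human transgene line were left out. Genes received 75.3% to 81.2% of the pairs. Symbols and positions came from GENCODE M21 for GRCm38. Groups came from the sample labels, and replicates were separate mice.

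For each region, edgeR 4.0.16 (R 4.3.3) fitted the 3 genotypes together after filterByExpr and TMM scaling, with quasi-likelihood tests and Benjamini-Hochberg adjustment over all genes tested at 0.05. Standard errors are the absolute log2 fold change over the square root of F. CPM used TMM-scaled library sizes, and log2 CPM used a prior count of 2. WT regions and interactions of genotype with region were fitted over all regions. Mouse numbers, which by the labels mark the same animal in every region, pair libraries across regions. A fit with the mouse as a block, which kept the libraries that stand apart, is given beside the interactions. No member passed in the comparison of mutants, so values in every library are given for the 8 members called in most comparisons with WT, ties by the lowest adjusted p, in the region where it was lowest. WT regions name up to 3 members each way by difference, and the wider list up to 4 per region by adjusted p. Genes outside this rule are named for context. Members, lists, and tests were chosen with earlier results of these data known. Alternatives were DESeq2 1.42.0, its size factors, no filter, fits of only the genotypes compared, covariates (number series, Xist, glial markers), removed or exchanged libraries, and leaving out each library or mouse. Fits were tested on simulated data. Some genes of the route are not reported here.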

Additional observations from a re-analysis of the deposited data

Results flagged for a closer look

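Msmo1 in 154Q cortex was marked by a gap between libraries: 154Q-69 stood at 79.8 CPM, below the other 3 libraries at 84.92 to 85.3 CPM, with a gap of 0.931 of the range of the group. It was 1 of 24 groups of 4 libraries examined for the 8 members given by library, and chance marks about 1 in 20. The 154Q call of Msmo1 in the cortex held without that library.

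Genotype effects differed between regions, by the interaction test in edgeR, for Mvd (adjusted p = 0.00239) and Cyp46a1 (adjusted p = 0.00514) in 154Q, and for Mvd (adjusted p = 0.000518) and Fdft1 (adjusted p = 0.0403) in 154Q-AXH. Of all genes, 5.71% passed in 154Q and 1.33% in 154Q-AXH, and the 154Q count of members is near that share. Mvd was at 14.4 CPM in WT and 17.0 CPM in 154Q cerebellum and at 28.6 and 20.5 CPM in the striatum. Cyp46a1 was at 32.7 and 34.5 CPM in the cerebellum and at 280.9 and 212.2 CPM in the striatum. Fdft1 was at 43.3 CPM in WT and 45.5 CPM in 154Q-AXH cerebellum and at 72.1 and 56.8 CPM in the hippocampus.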

How the results depend on the processing

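No member called in a comparison reversed its direction there under the alternatives run, and members that were not called were not followed. Counts of called members that moved are given here against those reported above. Where no share of all genes in the same fit is printed, a moved count is not read as particular to the members. DESeq2 called 2 in 154Q-AXH cerebellum, 1 in 154Q brainstem, 1 in 154Q-AXH hippocampus, and 5 in 154Q-AXH striatum, and 5 in the 154Q-AXH interaction by its likelihood ratio test, and its size factors in edgeR called 1 in 154Q-AXH hippocampus. With no filter on low counts, 154Q cerebellum gave 1, 154Q striatum 3, 154Q-AXH striatum 0, and the 154Q-AXH interaction 1. Fits of only the genotypes compared gave 0 in 154Q cerebellum, 0 in 154Q hippocampus, 3 in 154Q-AXH hippocampus, and 0 in 154Q-AXH striatum. With the number series as a covariate, the counts were 1 and 4 (154Q and 154Q-AXH) in the cerebellum, 0 in 154Q hippocampus, 1 and 0 for striatum, and 6 and 1 for cortex. With Xist as a covariate, 154Q hippocampus and 154Q-AXH striatum gave 0. With oligodendrocyte markers as a covariate, the striatum gave 10 and 6. With astrocyte markers, chosen after seeing the data, the counts (154Q and 154Q-AXH) were 1 and 1 for cerebellum, 5 and 1 for hippocampus, 0 and 0 for striatum, and 3 and 3 for cortex. Removing the hippocampal library of 154Q-76 and adding oligodendrocyte markers, also chosen after seeing the data, gave 4 and 1, and removing the cortical pair gave 3 in 154Q-AXH. The cause of these changes was not tested. In the interactions, the replicate block gave 4 and 4, and removing the libraries that stand apart gave 4 and 1. The block changed no call among WT regions, and within a region genotypes share no mouse. Leaving out 1 library or mouse gave 0 to 4 in 154Q and 0 to 1 in 154Q-AXH cerebellum, 0 to 4 and 0 to 7 for hippocampus, 3 to 9 and 0 to 6 for striatum, 7 to 11 and 3 to 9 for cortex, and 2 to 4 and 1 to 2 in the interactions. Cortical Cyp51 lost its call only with astrocyte markers as a covariate, in 154Q (adjusted p = 0.113) and in 154Q-AXH (adjusted p = 0.0788), and striatal Mvd in 154Q likewise (adjusted p = 0.375). In cortex and striatum the astrocyte sums of WT and the mutants did not overlap, so that fit cannot part the marker level from genotype. The striatal oligodendrocyte sums of WT and 154Q did not overlap either, so the 154Q count of 10 there has the same limit. Depth was lowest in striatum and cortex, where 18408 and 18610 genes passed the filter, against 20874 to 21754 elsewhere.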
